A study of Homo sapiens with 6 samples.

Results

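Oxidative phosphorylation was followed through the nuclear genes that encode the subunits of complexes I, III, IV and V, in cells of human oral squamous cell carcinoma kept under hypoxia or normoxia. The genes were chosen by symbol and not by any measured value, although earlier results of these data were known. The choice took protein-coding genes named NDUFA, NDUFB, NDUFC, NDUFS or NDUFV with a number, NDUFAB1, CYC1, the UQCR genes, the genes COX4 to COX8 that carry a letter, and the ATP5 genes. Of the 21776 genes counted, 79 carried such a name. NDUFA4, NDUFA4L2 and COX4I1 were set apart because they belong to isoform pairs known to switch under low oxygen, which left 76 genes. Complex I held 37 of them, complex III 10, complex IV 11 and complex V 18.

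The RNA came from SCC25, an established line, labelled wild type throughout, and the study's text also names SCC9 for this transcriptome. In the hypoxia group the cells spent 12 h at 1% O2 in a tri-gas incubator, and in the normoxia group they spent 12 h in a humidified incubator with air. Both gas mixtures contained added CO2. Each group held 3 libraries of 1 line, and nothing states whether these came from separate cultures, so the p-values may measure technical spread only. The authors deposited whole-number read counts per gene, with totals of 30186813, 36076088 and 32272716 in hypoxia replicates 1 to 3 and of 37278703, 29637189 and 29981208 in normoxia replicates 1 to 3.

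Oxidative phosphorylation moves electrons from NADH and succinate along complexes I to IV to oxygen, pumps protons across the inner mitochondrial membrane, and uses that gradient in complex V, the ATP synthase, to make ATP. Every complex but complex II joins subunits made from nuclear genes with a few made inside the mitochondrion from mitochondrial DNA. Cells short of oxygen are known to move towards glycolysis and to lower respiration, chiefly through the hypoxia-inducible factors and their targets.

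Under hypoxia 45 of the 76 subunit genes were lower, 6 were higher and 25 did not pass the test. Their median log2-fold change was -0.21, against 0.023 for all tested genes, and the median was -0.17 in complex I, -0.18 in complex III, 0.048 in complex IV and -0.33 in complex V; no test was made between the complexes. All 76 passed the filter on low counts. The test was edgeR's quasi-likelihood F test over 14255 genes, with p-values adjusted over all of them, and a gene was called at an adjusted p under 0.05. Of all genes tested, 77.8% passed in either direction, 38.5% as lower and 39.2% as higher, so a call alone sets no gene apart here; 59.2% of the subunit genes were lower and 7.89% higher. Of the 76, 61 lay below the median of all genes. Upper-quartile scaling moved every log2-fold change up by 0.19, and with it the number called lower became 28 and the number called higher 22. The distance of the subunit median from that of all genes depended on the filter on low counts: it was -0.23 here, -0.15 (54 of 76 genes below) under a stricter filter of 10 counts or more in each library, and -0.45 (74 below) with no filter. Levels are shares of each library's RNA, so less RNA per cell and fewer cells cannot be told apart from them.

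**Figure D1:**
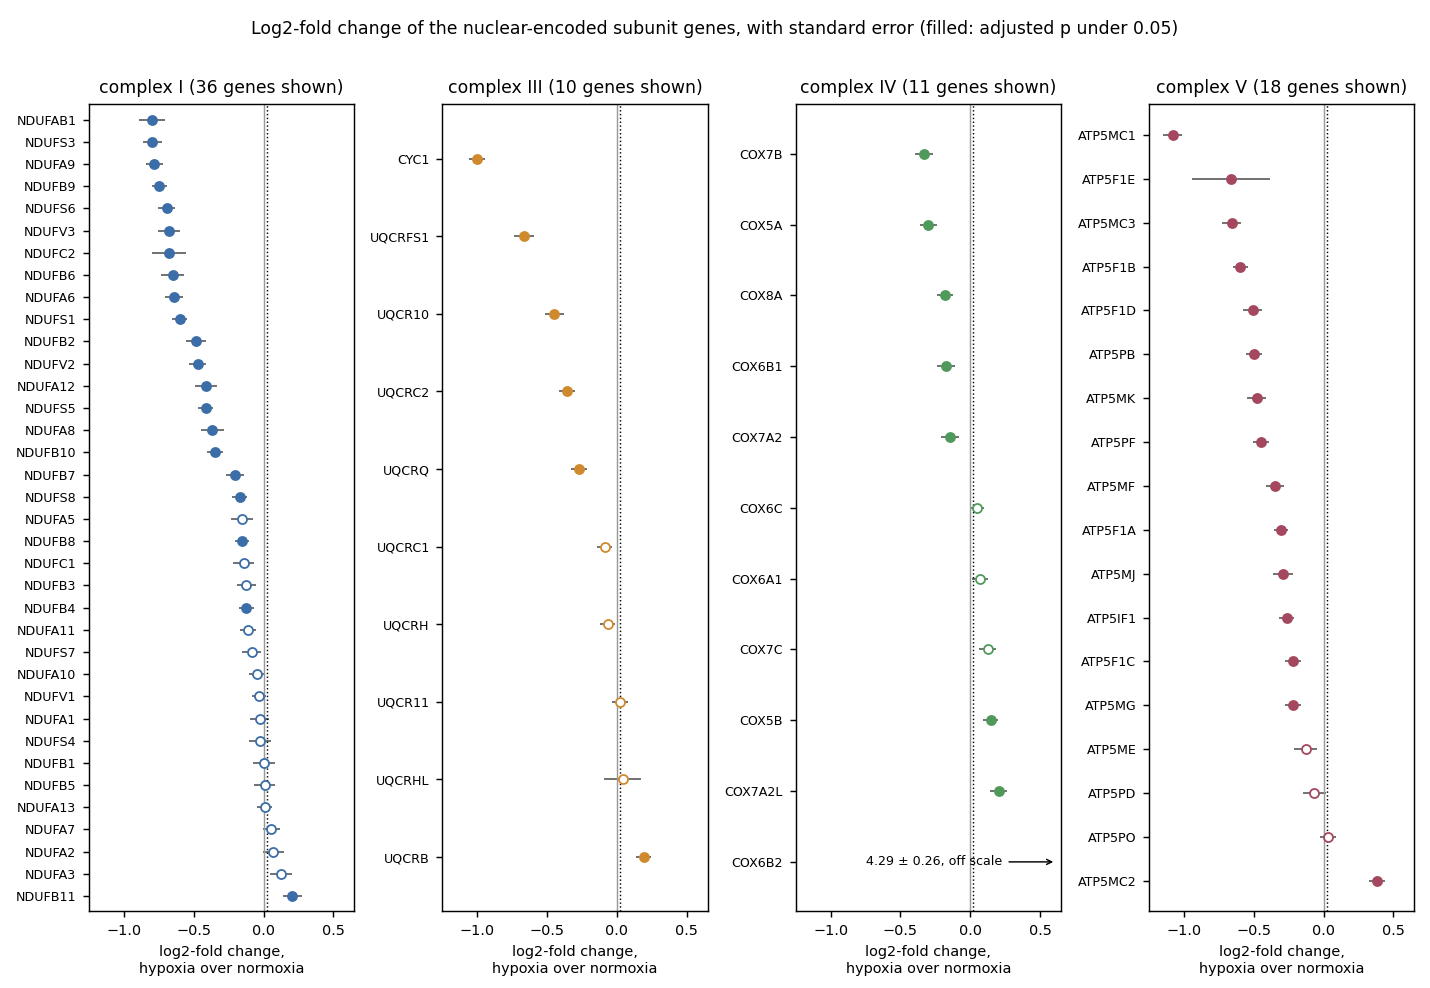
Log2-fold change of hypoxia over normoxia (x axis) for 1 subunit gene per line (y axis), in a panel per complex that leaves out 1 gene of complex I; the bars are standard errors (SE), filled points had an adjusted p-value under 0.05, and the dotted line is the median of all tested genes (0.023). Complex V reaches from -1.08 (ATP5MC1) to 0.38 (ATP5MC2), COX6B2 at 4.29 lies off the scale, and under upper-quartile scaling every point would stand 0.19 further to the right, which turns the sign of 19 values below 0.

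The sum over all 76 genes gave the size of the change. It was 7053, 6507 and 7058 CPM in the hypoxia libraries and 8199, 8599 and 8245 CPM in the normoxia libraries (CPM are counts scaled to the same library total, after TMM adjustment of that total). The conditions did not overlap, and the mean of 6873 ± 317 CPM (SD, n = 3) was 17.7% below the 8347 ± 219 CPM of normoxia. Summed FPKM, which weigh each gene by its length and carry no TMM scaling, were 13.2% lower. A decrease called beyond a log2-fold change of -0.5 was found for 17 of the 76 genes, where 25.7% of all tested genes were called that far down, and an increase called beyond 0.5 for COX6B2 alone, where 29.8% were. Tested against a minimum change of 0.2 on the log2 scale (glmTreat of edgeR), 32 genes were lower and 2 higher, beside 33.5% and 34.3% of all genes. In 46 of them all hypoxia values lay below all normoxia values and in 7 above, while 39.9% and 40.6% of all tested genes were separated in these directions.

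Hypoxia replicate 2 stood apart from the other hypoxia libraries. It had the lowest value of the hypoxia libraries for 65 of the 76 genes, and its median difference from the normoxia mean was -0.30 on the log2 scale, against -0.17 and -0.19 in hypoxia replicates 1 and 3. Without it, 41 genes were called lower and 7 higher. Among the normoxia libraries, replicate 3 had the highest levels of hypoxia-induced genes: NDRG1 read 409 CPM there, against 163 and 140 CPM in the other normoxia libraries and 9007 CPM or more under hypoxia. Without normoxia replicate 3, 46 subunit genes were lower and 6 higher. CA9, VEGFA, NDRG1, PDK1 and BNIP3, which are textbook targets of hypoxia, were all higher under hypoxia, with VEGFA going from 180, 168 and 205 CPM to 1202, 1317 and 1315 CPM, so the libraries followed their labels.

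**Figure D2:**
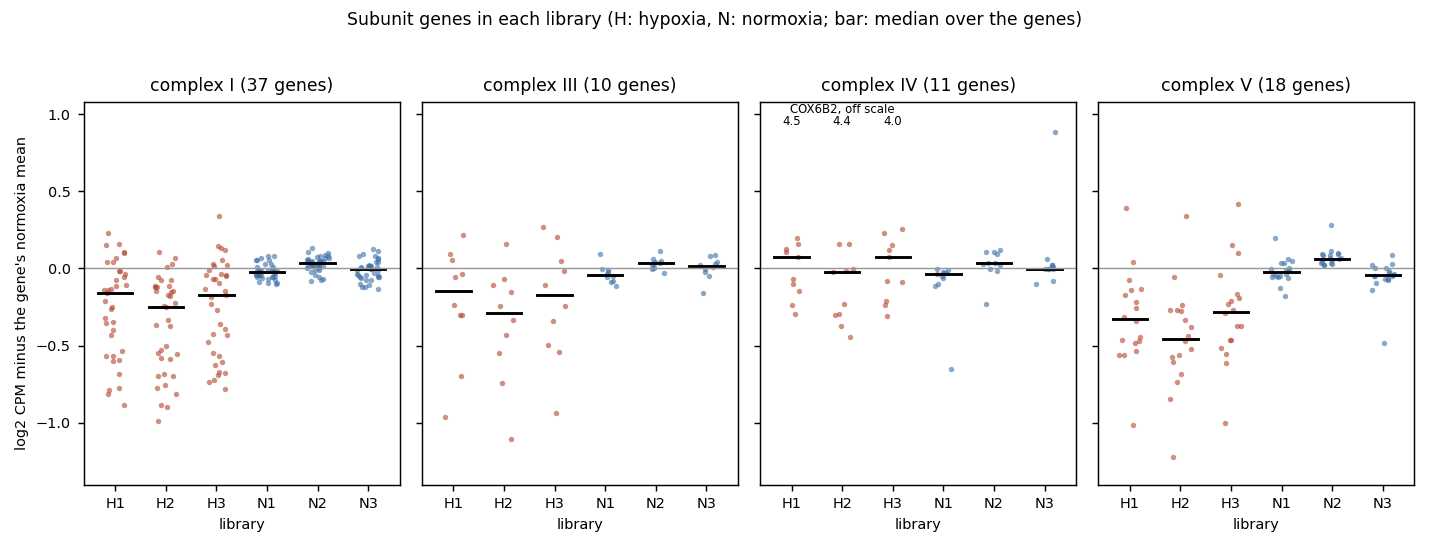
Difference of each subunit gene's log2 CPM from its own normoxia mean (y axis) in each of the 6 libraries (x axis), in a panel per complex, with a bar at the median over the genes. The hypoxia medians of complex V are -0.33, -0.46 and -0.28 and those of complex IV 0.076, -0.022 and 0.073; upper-quartile scaling would raise the hypoxia points by 0.19 on average relative to the normoxia points.

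The labelled cell type was compared with its markers. KRT5, TP63, CDH1, EPCAM and SFN, all genes of squamous or other epithelium, were present at 52.4 CPM or more in every library, whereas KRT14, a keratin of basal squamous cells, had 1 read in all libraries together and KRT6A fell from 16.5 ± 3.86 to 0.951 ± 0.491 CPM. Among the others CDH1 was higher under hypoxia (log2-fold change 1.4), SFN (-0.80), EPCAM (-0.35) and KRT5 (-0.18, which upper-quartile scaling turned to 0.0093) were lower, and TP63 did not pass (0.12). Of 8 markers of leukocytes, fibroblasts and endothelium, PTPRC, CD3E, COL1A2, DCN, PECAM1 and VWF stayed below the filter at no more than 0.328 CPM. CD14 and COL1A1 passed it and were higher under hypoxia, with log2-fold changes of 2.45 and 2.26. The 8 markers together summed to 27.2, 23.9 and 22.4 CPM under hypoxia and to 4.57, 3.60 and 6.83 CPM under normoxia, mostly from COL1A1, and their part in the results on subunit genes was not tested.

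Levels of different genes are compared per length, as FPKM (the authors' counts divided by gene length and by the library total). Only the shares of the c-ring genes are also given in CPM. The median subunit gene stood at 63.7 FPKM over the 6 libraries, against 4.98 FPKM for the median tested gene. ATP5F1B, the catalytic beta subunit of the ATP synthase, was the most abundant of complex V at 375 FPKM. The highest of complex I was NDUFS5 at 352 FPKM, the highest of complex IV was COX6A1 at 306 FPKM, and the highest of complex III was UQCRH, the hinge protein, at 265 FPKM. Subunits of 1 complex thus spread widely, and part of that spread lies in the lengths used, since the values imply 11774 bases for NDUFS1 (10.6 FPKM) and 495 bases for NDUFS5.

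Of those 4 abundant genes, the pair in complexes V and I was lower and the pair in complexes III and IV did not pass. ATP5F1B read 541, 497 and 543 CPM under hypoxia and 792, 832 and 771 CPM under normoxia, which is -0.60 on the log2 scale (SE 0.054, edgeR adjusted p = 1.54e-08). NDUFS5 read 157, 141 and 152 CPM against 198, 202 and 200 CPM, or -0.41 on the log2 scale (SE 0.053). The conditions were separate in both genes. UQCRH, with 182, 167 and 184 CPM against 181, 190 and 187 CPM, overlapped between the conditions (log2-fold change -0.066, SE 0.054, edgeR adjusted p = 0.268), and so did COX6A1, with 173, 158 and 174 CPM against 156, 165 and 160 CPM (0.069, SE 0.055).

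Complex I, the NADH dehydrogenase, passes electrons from NADH to ubiquinone. Of its 37 genes 21 were lower, 1 was higher and 15 did not pass, with a median log2-fold change of -0.17, a value that upper-quartile scaling turned to 0.023. It lay -0.19 from the median of all genes, against -0.10 (26 of 37 genes below) with the stricter filter and -0.41 (37 below) with none. The core subunits carry the flavin and the iron-sulfur clusters or the ubiquinone site. Of these, NDUFS3 (-0.80), NDUFS1 (-0.60), NDUFV2 (-0.47) and NDUFS8 (-0.17) were lower, whereas NDUFS7 and NDUFV1, the subunit that binds the flavin, did not pass. NDUFS8 lost its call under upper-quartile scaling and with the stricter filter.

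NDUFS3, a core subunit of the arm that reaches into the matrix, read 36.6, 34.5 and 40.2 CPM under hypoxia and 64.7, 66.4 and 61.9 CPM under normoxia. The conditions did not overlap (SE 0.066, edgeR adjusted p = 6.13e-09). NDUFS3 shares 19.6% of its exon bases with PTPMT1 on the same strand, and how reads there were divided is not known. NDUFAB1, the mitochondrial acyl carrier protein, which also serves fatty acid and lipoate synthesis, had the largest decrease of complex I at -0.80 (SE 0.094), from 33.3, 32.9 and 29.3 CPM to 18.4, 16.0 and 20.6 CPM. NDUFA9, a supernumerary subunit near the ubiquinone site, went from 98.1, 108 and 99.5 CPM to 63.4, 55.1 and 59.3 CPM, a change of -0.78 (SE 0.063). In each of these genes the lowest normoxia library exceeded the highest hypoxia library by a wide margin.

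The NDUFB genes, which encode subunits of the membrane arm, split into 7 lower, 1 higher and 3 that did not pass. NDUFB9 (-0.75), NDUFB6 (-0.65), NDUFB2 (-0.48), NDUFB10 (-0.35), NDUFB7 (-0.21), NDUFB8 (-0.15) and NDUFB4 (-0.12) were lower, the last with an edgeR adjusted p of 0.0491 that rose above 0.05 when hypoxia replicate 1 (0.115), hypoxia replicate 2 (0.0982) or normoxia replicate 2 (0.143) was left out, and that was lost under every other scaling, the DESeq2 test, the stricter filter and the replicate block as well. NDUFB7 and NDUFB8 also lost their calls under upper-quartile scaling and with the stricter filter, and NDUFB8 with library totals alone. NDUFB3, NDUFB1 and NDUFB5 did not pass. NDUFB11 was the only gene of complex I called higher: it read 61.3, 59.2 and 69.5 CPM under hypoxia and 54.6, 57.4 and 52.7 CPM under normoxia, or 0.21 on the log2 scale (SE 0.067, edgeR adjusted p = 0.00986). Its call rested on hypoxia replicate 3, without which the change was 0.13 (edgeR adjusted p = 0.107), and 44.9% of its exon bases lie opposite RBM10, whose reads could be shared if counting ignored the strand.

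Among the other 19 supernumerary subunits 9 were lower and 10 did not pass. The lower ones, beside NDUFAB1 and NDUFA9, were NDUFS6 (-0.69), NDUFV3 (-0.68), NDUFC2 (-0.68), NDUFA6 (-0.64), NDUFA12 (-0.41), NDUFS5 (-0.41) and NDUFA8 (-0.37), whose call was lost under upper-quartile scaling. Those that did not pass ranged from -0.15 for NDUFA5 to 0.13 for NDUFA3, which are also the lowest and highest of all 15 genes of complex I that did not pass, and the rest were NDUFC1, NDUFA11, NDUFA10, NDUFA1, NDUFS4, NDUFA13, NDUFA7 and NDUFA2. NDUFC2 shares 16.3% of its exon bases with a readthrough gene on the same strand, and at 4.38 FPKM its level is uncertain.

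Complex III passes electrons from ubiquinol to cytochrome c. Both of its nuclear-encoded redox subunits were among the genes that fell most. CYC1, cytochrome c1, read 132, 120 and 134 CPM under hypoxia and 257, 266 and 249 CPM under normoxia, which is -1.0 on the log2 scale (SE 0.057, edgeR adjusted p = 3.89e-11). UQCRFS1, the Rieske iron-sulfur protein, read 65.4, 63.5 and 72.9 CPM against 114, 111 and 95.2 CPM (-0.66, SE 0.071). Neither gene overlapped between the conditions.

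The subunits of complex III without a redox centre moved less. Of the core proteins UQCRC2 was lower (-0.36) and UQCRC1 did not pass (-0.088). UQCR10 (-0.45) and UQCRQ (-0.27, not called under upper-quartile scaling) were lower, while UQCRH, UQCR11 and UQCRHL (0.040) did not pass; UQCRHL is a near-copy of UQCRH, so the division of reads between them is uncertain. UQCRB, a small subunit at the ubiquinone site, was higher, with 183, 175 and 181 CPM under hypoxia against 149, 157 and 166 CPM under normoxia. Its log2-fold change was 0.19 (SE 0.054, edgeR adjusted p = 0.00392), and without normoxia replicate 1 it was 0.14 (edgeR adjusted p = 0.0529). In all, complex III had 5 genes lower, 1 higher and 4 that did not pass (-0.088 to 0.040), with a median of -0.18 that became 0.013 under upper-quartile scaling. It lay -0.20 from the median of all genes, against -0.11 with the stricter filter and -0.42 with none.

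Complex IV, cytochrome c oxidase, hands the electrons to oxygen. Of its 11 genes 5 were lower, 3 higher and 3 did not pass, with a median of 0.048, beside 0.023 for all genes, that turned to -0.049 when COX7A2L was left out. The distance of its median from that of all genes depended on the filter: it was 0.026 with the filter used here, 0.11 when each library had to hold 10 counts or more, where complex I stood at -0.10, and -0.19 with no filter, where 10 of the 11 genes lay below the median. Its summed level was 1124, 1031 and 1126 CPM under hypoxia and 1080, 1159 and 1116 CPM under normoxia, a difference of -2.21% within the overlap of the libraries, and it was 1.15% higher under hypoxia by FPKM. By contrast the sums of complexes I, III and V were 18.3%, 17.7% and 22.8% lower, with no overlap. The values of complex IV hold for these 11 genes only. NDUFA4, a complex IV subunit set apart by the rule, was lower (-0.50, 173 CPM under hypoxia against 245 CPM under normoxia, without overlap). COX4I1, set apart as well, did not pass (0.063).

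COX7B (-0.33), COX5A (-0.30), COX8A (-0.18), COX6B1 (-0.17) and COX7A2 (-0.15) were the lower genes of complex IV. COX6B1 lost its call when hypoxia replicate 2 (edgeR adjusted p = 0.114) or normoxia replicate 2 (0.0712) was left out, and COX7A2 did so with the same libraries (0.229 and 0.0788), so that 3 genes were lower without either library. Both also lost their calls with library totals alone and with the stricter filter, and COX7A2 under DESeq2 scaling, the DESeq2 test and the replicate block too. No gene of complex IV was lower under upper-quartile scaling, and COX8A lost its call with the stricter filter too. COX6C (0.048), COX6A1 and COX7C (0.13) did not pass. COX5B was higher at 0.15 (SE 0.054), with 70.5, 72.2 and 72.0 CPM against 64.2, 64.0 and 65.7 CPM and no overlap, but its call was lost when hypoxia replicate 3 (edgeR adjusted p = 0.0656), normoxia replicate 1 (0.0927) or normoxia replicate 2 (0.0660) was left out, and with no filter.

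COX7A2L, which joins complexes III and IV into supercomplexes, was counted here with complex IV. It read 79.5, 77.0 and 82.6 CPM under hypoxia and 69.0, 74.3 and 64.4 CPM under normoxia, or 0.20 on the log2 scale (SE 0.061, edgeR adjusted p = 0.00612), without overlap. The largest change of all subunit genes was that of COX6B2, an isoform of the COX6B subunit known from testis. It had 486, 575 and 373 counts in the hypoxia libraries and 15, 16 and 38 in the normoxia libraries, or 15.9, 15.5 and 11.5 CPM against 0.403, 0.559 and 1.28 CPM. The increase was 19.5-fold (4.29 on the log2 scale, SE 0.26, edgeR adjusted p = 7.20e-11), and it ranged from 3.93 to 4.89 on the log2 scale when each library was left out in turn.

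COX6B2 remained a small part of the COX6B transcripts. Per length it made up 3.14% ± 0.676 of the sum of COX6B1 and COX6B2 under hypoxia and 0.148% ± 0.092 under normoxia (SD, n = 3), while the sum itself was 222 ± 12.5 FPKM against 235 ± 11.9 FPKM. The normoxia library with the most COX6B2 was replicate 3, the one with the highest NDRG1. COX6B2 shares 30.9% of its exon bases with a gene model on the same strand, AC020922.1, for which no separate count was used.

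Complex V had the highest share of genes called lower. Of its 18 genes 14 were lower, 1 was higher and 3 did not pass, and the median of -0.33 became -0.14 under upper-quartile scaling, where 9 genes were called lower. It lay -0.35 from the median of all genes, against -0.26 with the stricter filter and -0.57 with none. All 5 genes of the F1 head and central stalk, where ATP is made, were lower: ATP5F1E (-0.67), ATP5F1B (-0.60), ATP5F1D (-0.51), ATP5F1A (-0.31) and ATP5F1C (-0.22). ATP5F1E, the epsilon subunit, had 42, 45 and 46 counts against 88, 72 and 43 counts, the lowest total over the libraries of any subunit gene, and its call was lost on leaving out any library but normoxia replicate 3 (edgeR adjusted p from 0.0626 to 0.138), with library totals alone, under upper-quartile scaling and with the replicate block. At 0.475 FPKM for a subunit that every ATP synthase contains, the count of ATP5F1E is uncertain. ATP5F1C lost its call under upper-quartile scaling. Of the peripheral stalk, ATP5PB (-0.50) and ATP5PF (-0.45) were lower, and ATP5PO (0.028) and ATP5PD did not pass.

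The small membrane subunits ATP5MK (-0.48), ATP5MF (-0.35), ATP5MJ (-0.29) and ATP5MG (-0.22) were lower, the last pair not under upper-quartile scaling, and ATP5ME (-0.13), with 61.6% of its exon bases opposite MYL5, did not pass; the 3 genes of complex V that did not pass ranged from -0.13 to 0.028. ATP5IF1, the inhibitor that holds the enzyme when it would run backwards and hydrolyse ATP, read 72.6, 74.8 and 78.0 CPM under hypoxia and 87.3, 91.8 and 91.6 CPM under normoxia. It was lower as well (-0.26, SE 0.054), by about as much as the median of the complex, and lost its call under upper-quartile scaling.

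The c ring, the rotor through which the protons pass, is built from a single protein that 3 genes encode with different targeting sequences, and these genes moved in opposite directions. ATP5MC1 had the largest decrease of all subunit genes, from 75.8, 83.9 and 76.3 CPM to 38.8, 33.7 and 39.1 CPM (-1.08 on the log2 scale, SE 0.069, edgeR adjusted p = 1.84e-10). ATP5MC3 went from 213, 229 and 214 CPM to 151, 122 and 143 CPM (-0.66, SE 0.068). ATP5MC2 rose from 85.7, 100 and 95.4 CPM to 123, 119 and 125 CPM, which is 0.38 on the log2 scale (SE 0.061, edgeR adjusted p = 1.83e-05). None of the 3 overlapped between the conditions, and their calls held under every other fit tried.

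Because the protein is shared, the sum of the genes was also followed. Per length it was 143 ± 8.45 FPKM under hypoxia and 215 ± 7.88 FPKM under normoxia (SD, n = 3). ATP5MC1 took the largest part of that sum in both conditions, with 40.9% ± 0.564 under hypoxia and 55.8% ± 0.473 under normoxia. ATP5MC2 took 30.5% ± 1.52 and 15.1% ± 0.647. ATP5MC3 took 28.6% ± 1.23 and 29.2% ± 0.447, which overlapped between the conditions. The mix of c-ring transcripts thus differed between the conditions in the shares of ATP5MC1 and ATP5MC2, and the total was lower under hypoxia. The shares and their order rest on the authors' gene lengths. In CPM, without length, ATP5MC3 took the largest part, 46.4% ± 1.94 under hypoxia and 55.9% ± 0.839 under normoxia, with no overlap. By that measure ATP5MC1 took 12.5% and 20.1%, and ATP5MC2 took 41.1% and 24.0%. ATP5MC2 shares 6.99% of its exon bases with a pseudogene on the same strand.

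**Figure D3:**
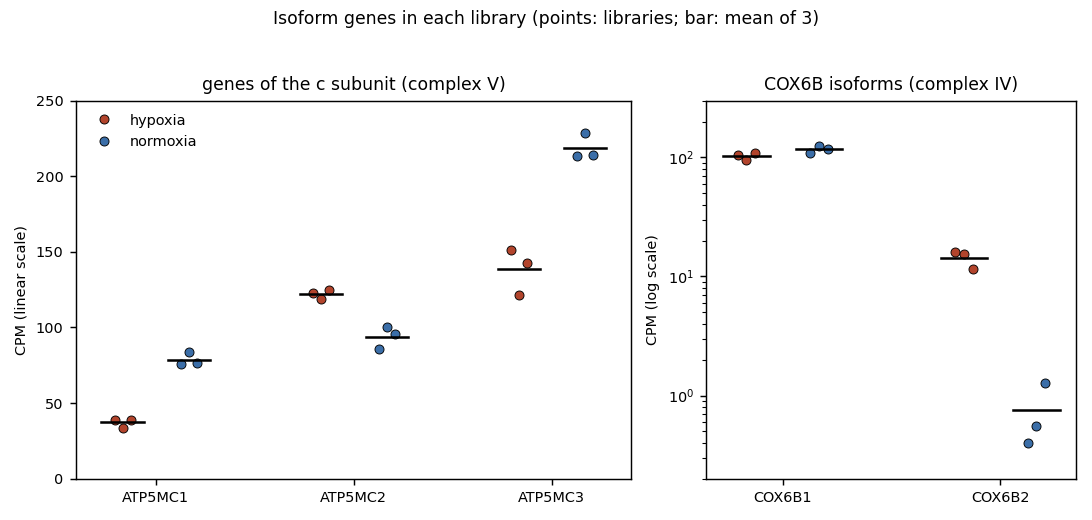
CPM in each library (points, with a bar at the mean of 3) of the 3 genes that encode the c subunit (left, linear y axis from 0) and of the COX6B isoforms (right, logarithmic y axis), by condition on the x axis. ATP5MC1 and ATP5MC3 lie lower and ATP5MC2 and COX6B2 higher in all 3 hypoxia libraries than in any normoxia library, and COX6B1 overlaps between the conditions.

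The start sites of these genes were read for motifs of factors known to control mitochondrial genes. Windows of 300 bases, 250 before and 50 after a start site, came from RefSeq on GRCh38.p14 and matched 63 of the 76 genes, in 76 windows. On both strands the letters searched were GCGCA, then any base, then GCGC for NRF1, CCGGAAG for ETS factors such as GABPA, AANATGGCG for YY1, and ACGTG or GCGTG for hypoxia response elements. The YY1 letters were in 23.7% of the subunit windows and in 5.70% of the windows of tested genes. They include ATG, the letters of a start codon, and the windows run 50 bases past the start site. Whether matches lie over the start of the coding sequence was not tested. Shares were 18.4% and 9.62% for NRF1, 25.0% and 16.5% for ETS, and 63.2% and 60.0% for the hypoxia response element, a short motif that most windows hold.

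The windows that follow are examples chosen with the results known, namely a pair of c-subunit genes and the COX6B genes, which moved apart, and 3 of the genes of complexes I and III that fell. Each is written 5′ to 3′ on the strand of the gene, with matches to any of these motifs in capitals.
ATP5MC1 (chr17:48892537-48892836, + strand): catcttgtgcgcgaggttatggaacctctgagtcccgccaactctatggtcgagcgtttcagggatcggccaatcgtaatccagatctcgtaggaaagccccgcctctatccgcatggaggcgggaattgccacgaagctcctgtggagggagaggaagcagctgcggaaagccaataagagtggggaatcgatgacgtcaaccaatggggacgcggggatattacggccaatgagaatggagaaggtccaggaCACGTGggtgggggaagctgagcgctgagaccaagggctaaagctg
ATP5MC2 (chr12:53676034-53676333, - strand, 1 of its 3 windows): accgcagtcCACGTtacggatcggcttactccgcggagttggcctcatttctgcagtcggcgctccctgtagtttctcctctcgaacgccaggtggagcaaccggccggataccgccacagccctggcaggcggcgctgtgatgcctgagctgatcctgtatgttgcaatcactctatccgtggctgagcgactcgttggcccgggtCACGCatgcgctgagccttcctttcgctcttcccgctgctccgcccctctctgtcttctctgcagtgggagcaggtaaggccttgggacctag
NDUFS3 (chr11:47578824-47579123, + strand): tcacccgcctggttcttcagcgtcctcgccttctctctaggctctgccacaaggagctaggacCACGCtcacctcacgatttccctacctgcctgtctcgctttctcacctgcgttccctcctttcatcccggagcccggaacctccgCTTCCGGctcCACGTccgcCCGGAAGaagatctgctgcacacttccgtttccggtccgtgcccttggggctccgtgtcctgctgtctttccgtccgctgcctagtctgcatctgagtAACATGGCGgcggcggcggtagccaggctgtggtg
NDUFA9 (chr12:4648864-4649163, + strand): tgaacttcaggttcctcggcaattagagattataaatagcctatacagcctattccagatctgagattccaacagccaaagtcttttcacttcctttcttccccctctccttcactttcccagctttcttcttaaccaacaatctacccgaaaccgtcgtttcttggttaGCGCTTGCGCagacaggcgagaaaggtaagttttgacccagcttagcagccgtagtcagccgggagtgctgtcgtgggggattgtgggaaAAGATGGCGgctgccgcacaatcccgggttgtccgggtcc
UQCRFS1 (chr19:29213102-29213401, - strand): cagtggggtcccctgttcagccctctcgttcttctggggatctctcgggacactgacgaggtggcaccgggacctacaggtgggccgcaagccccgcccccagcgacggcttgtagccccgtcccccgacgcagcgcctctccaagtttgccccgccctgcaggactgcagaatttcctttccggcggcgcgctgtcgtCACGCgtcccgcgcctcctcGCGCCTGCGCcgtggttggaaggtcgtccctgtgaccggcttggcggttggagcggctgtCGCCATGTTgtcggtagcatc
COX6B1 (chr19:35648073-35648372, + strand): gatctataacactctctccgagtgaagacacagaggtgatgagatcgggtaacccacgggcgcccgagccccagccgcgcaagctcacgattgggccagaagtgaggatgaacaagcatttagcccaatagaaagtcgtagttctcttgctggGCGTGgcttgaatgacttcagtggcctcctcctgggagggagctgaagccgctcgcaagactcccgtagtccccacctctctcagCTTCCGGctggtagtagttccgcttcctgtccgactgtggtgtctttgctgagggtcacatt
COX6B2 (chr19:55354670-55354969, - strand): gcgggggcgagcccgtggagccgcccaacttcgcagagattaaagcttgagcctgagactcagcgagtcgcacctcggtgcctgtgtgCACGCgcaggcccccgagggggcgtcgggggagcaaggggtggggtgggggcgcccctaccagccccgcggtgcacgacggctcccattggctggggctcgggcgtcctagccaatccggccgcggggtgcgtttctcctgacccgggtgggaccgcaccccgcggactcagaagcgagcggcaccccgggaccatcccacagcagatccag

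NDUFS3, NDUFA9 and UQCRFS1, which fell, each hold the YY1 letters, with ATG among them, just after the start site. NDUFA9 and UQCRFS1 also hold those of NRF1. NDUFS3 holds the ETS letters in 2 places and the hypoxia response letters in 2. ATP5MC1 has matches only to the hypoxia response element, and its 2 matches overlap to spell CACGTG, letters also known as an E-box. The window shown for ATP5MC2 and that of COX6B2, genes which rose, hold matches to the hypoxia response element only, at 2 places and 1 place, and COX6B1 holds 1 of these and 1 ETS match. Over all windows, YY1 letters were in 13 of the 41 of genes called lower (31.7%) and in 5 of the 35 of the others (14.3%). The 41 windows came from 36 genes and the 35 windows from 27, so they are not all independent, and no test was made. The shares were 19.5% and 17.1% for NRF1, 26.8% and 22.9% for ETS, and 61.0% and 65.7% for the hypoxia response element. A match is a run of letters and not a measured site.

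Other genes that build or run the respiratory chain were compared through lists of their names. Complex II, which is wholly nuclear-encoded and was outside the rule, had 3 genes lower, SDHB (-0.45), SDHD (-0.37) and SDHA (-0.35), and SDHC higher (0.27). CYCS, cytochrome c itself, fell from 690, 761 and 630 CPM to 248, 211 and 232 CPM, which is -1.59 on the log2 scale (SE 0.071), more than any of the 76 subunit genes. NDUFA4, a complex IV subunit despite its name, was lower (-0.50), COX4I1 did not pass (0.063, edgeR adjusted p = 0.255), and NDUFA4L2 stayed below the filter with 3, 13 and 12 counts against 3, 3 and 5. COX4I2 was not analysed here.

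The 13 subunits made from mitochondrial DNA had 10 genes lower, 2 higher and 1 that did not pass, with a median of -0.50. MT-ND6 (-2.29) and MT-ND1 (-2.01) fell most, from 241, 289 and 310 CPM to 70.2, 45.6 and 56.7 CPM and from 1736, 2073 and 1843 CPM to 494, 445 and 468 CPM. MT-ND2 (-0.67), MT-ND3 (-0.58), MT-ATP8 (-0.57), MT-ND5 (-0.55), MT-CO3 (-0.50), MT-ATP6 (-0.43), MT-CO2 (-0.37) and MT-CYB (-0.34) were lower too. MT-ND4 was higher (0.40) and so was MT-ND4L (0.17), whose call was lost when hypoxia replicate 1, hypoxia replicate 3 or normoxia replicate 1 was left out (edgeR adjusted p = 0.153, 0.170 and 0.400), and MT-CO1 did not pass (-0.074). Together they took 5.45% ± 0.157 of all counts under hypoxia and 6.20% ± 0.565 under normoxia (SD, n = 3). The shares nearly met, at 5.593% in hypoxia replicate 1 and 5.600% in normoxia replicate 1. These 13 genes are transcribed as long joint precursors, so they are not independent.

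Genes that assemble the complexes moved further than the subunits. Of 48 assembly factors 47 were tested, with 37 lower, 3 higher and 7 that did not pass and a median of -0.53, against -0.21 for the subunit genes; no test was made of the difference. All 6 factors of complex III were lower, from BCS1L (-1.72), which inserts the Rieske protein, to UQCC2 (-0.24). For complex I 13 of 16 were lower, led by NDUFAF4 (-2.60, from 21.3, 22.1 and 16.8 CPM to 3.21, 3.23 and 3.51 CPM), for complex V 3 of 4, led by TMEM70 (-1.39), and for complex IV 15 of the 21 tested, led by COA7 (-2.14). The 3 that were higher all belong to complex IV: COA5 (0.84), SURF1 (0.79) and COX19 (0.69). Complex IV thus had a subunit median of 0.048 beside assembly factors with a median of -0.62.

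Mitochondrial ribosomal proteins, which make the 13 mitochondrial subunits, had 69 of 78 genes lower and 1 higher, MRPS6 (0.61), with MRPL15 (-1.66) lowest and a median of -0.68. Of the cytosolic ribosomal proteins 62 of 81 tested were higher and 7 lower, with RPL13A (0.60) highest, RPS10 (-1.86) lowest and a median of 0.24. That is 0.22 above the median of all genes, a distance that was -0.0012 with no filter on low counts. RPS10 stood at 6.69 CPM under normoxia and has near-identical copies, so its value is uncertain. Upper-quartile scaling turned neither median, nor that of the mitochondrial DNA genes or of the assembly factors.

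Of 14 regulators of mitochondrial biogenesis 13 were tested, and 10 were lower and 2 higher. PPARGC1B, a coactivator of respiratory genes, fell from 20.4, 20.7 and 15.8 CPM to 3.21, 2.39 and 1.23 CPM (-3.06), and PPRC1, a coactivator of the same family, from 124, 124 and 108 CPM to 24.2, 20.8 and 22.7 CPM (-2.40). PPARGC1A had at most 3 counts in any library and was not tested. MYC, which drives many mitochondrial genes, was lower (-2.88), and MXI1, a MYC antagonist that hypoxia induces, was higher (3.96, from 7.39, 7.37 and 9.80 CPM to 115, 134 and 131 CPM).

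The list held NRF1, YY1 and both GABP subunits, whose letters were searched in the start sites. NRF1 was lower (-0.55), as were GABPB1 (-1.12) and YY1 (-0.15, a sign that upper-quartile scaling turned to 0.039), and GABPA did not pass (0.17, edgeR adjusted p = 0.0708). ESRRA, a nuclear receptor that acts on mitochondrial genes, was lower (-0.46). Of the machinery that copies and reads mitochondrial DNA, TFB2M (-1.88), TFAM (-0.86) and POLRMT (-0.75) were lower. TFB1M, a methyltransferase of the mitochondrial ribosome, was higher (0.32). Every one of these values is an RNA level, and protein amounts or respiration were not measured in these libraries.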

How the data were processed

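RNA of SCC25 cells was sequenced from SMARTER mRNA-Seq libraries, 3 of hypoxia and 3 of normoxia, which were grouped by the condition in their titles. The authors deposited raw read counts per gene and, in a second table, FPKM, which they scaled by gene length and library total. Counts were used for every test and FPKM only for levels between genes. The submitters' processing notes list the mouse builds GRCm38 and mm10, although organism and symbols are human; the aligner, the counter, the annotation and the strand setting are not given in the sources used here. Depth was 29637189 to 37278703 counts per library, and replicates differed by more than sampling noise, with a mean chi-square for a gene of 4.90 to 10.8.

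Of 21776 genes, 14255 passed filterByExpr. They were fitted with edgeR 4.0.16 (glmQLFit and glmQLFTest, TMM scaling, prior count 2, condition as the only term) in R 4.3.3, p-values were adjusted by Benjamini-Hochberg over all of them, and 0.05 was the threshold. The SE is the log2-fold change divided by the square root of F. On simulated data with 14255 genes, the test found 24 of 50 genes changed by 0.25 on the log2 scale, 45 of 50 changed by 0.5 and all changed by 1 or 2, and 5.06% of its calls were false. Only 50 genes were changed at each size there, as many up as down and none of them weakly expressed. In the real data 77.8% of genes were called, so these rates need not hold for them. The simulation did not probe the choice of scaling. Alternatives were DESeq2 1.42.0 as size factors or as a test, library totals alone, upper-quartile scaling, no filter or a minimum of 10 counts per library, a block for the replicate number, fits on 5 of the libraries, fold-change thresholds, fewer member genes, and FPKM sums.

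The member genes and all gene lists were chosen with earlier results of these data known. Values in every library are given for the 5 largest increases and decreases among called, non-overlapping members, for the most abundant and the most changed member of each complex, and for some other genes named for their role or their isoform pair after their values had been seen; the rest are named with their log2-fold change or, where they did not pass, within the range of their complex, except 1 gene of complex I that is in the counts and medians but not reported here by name. Promoter windows are RefSeq's (GRCh38.p14). Exon overlaps were taken from GENCODE v29, in which 24 members share exon bases with another gene on the same strand and 30 on the opposite one. Python 3.11.15 with pandas 2.3.3 made the summaries.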

Additional observations from a re-analysis of the deposited data

How the results depend on the processing

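Of the 51 subunit genes called, 31 were called in the same direction in all 13 other fits across genes, 28 lower and 3 higher. For the calls and the signs, the choice of scaling mattered most. The distance of the subunit median from that of all genes depended instead on the filter on low counts, as given above. Under upper-quartile scaling 22 genes were higher and 28 lower; 11 genes of complex I, 3 of complex III, 6 of complex IV and 2 of complex V were higher, and 0 of complex IV and 9 of complex V were lower. The medians became -0.020 for all subunit genes, 0.023 for complex I, 0.013 for complex III, 0.24 for complex IV and -0.14 for complex V. In all 19 subunit genes turned sign, 6 called and 13 that had not passed. Of the genes given a value in the text, those that turned were NDUFA5 (0.038), NDUFB4 (0.070), NDUFB8 (0.040), NDUFS8 (0.023), UQCRC1 (0.10), UQCRH (0.13), COX6B1 (0.019), COX7A2 (0.045), COX8A (0.014), ATP5ME (0.064), MT-CO1 (0.12), YY1 (0.039), and the epithelial marker KRT5 (0.0093). This follows from the uniform shift of 0.19. With library totals alone, complex IV had 5 genes higher and 3 lower.

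With at least 10 counts in every library, 10 subunit genes were higher, among them 2 of complex I and 6 of complex IV, and 2 of complex IV were lower. The medians were -0.092 for complex I and 0.13 for complex IV, and 6 subunit genes turned sign, UQCRH (0.011) among them, as did MT-CO1 (0.0037). The median move of a gene's log2-fold change was 0.077 here. With no filter, which moved the log2-fold changes by -0.041, 6 subunit genes turned sign, UQCRHL (-0.000820) and ATP5PO (-0.013) among them. The median of complex IV turned to -0.049 without COX7A2L and ATP5IF1, and to -0.049 again over members of at least 10 FPKM, since both remove a gene with an increase. In summed FPKM the log2 ratio was -0.21 for complex III, against -0.28 in CPM, and 0.017 for complex IV, against -0.032.

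A size threshold lowers the counts by construction. Beyond 0.5 on the log2 scale, 1 subunit gene was higher and 17 lower; by complex, 0, 0, 1 and 0 were higher and 10, 2, 0 and 5 lower in complexes I, III, IV and V. By glmTreat against 0.2, 2 were higher, 0 of complex I, 0 of complex III and 1 of complex IV, and in complexes IV and V 2 and 9 were lower.

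When each library was left out in turn, 41 to 46 subunit genes were lower and 4 to 7 higher. Complex I had 0 to 1 gene higher, complex III 0 to 1 higher and complex IV 3 to 5 lower. Of the genes that did not pass, 9 turned sign without at least 1 library; UQCRHL ranged from -0.094 to 0.17 and ATP5PO from -0.026 to 0.065.

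Hypoxia and normoxia libraries share replicate numbers, but same-numbered libraries did not deviate together (r = 0.018, -0.069 and 0.0012), so the numbers are not taken as pairs. With the replicate number as a block, 42 subunit genes were lower and 6 higher. NDUFA4L2 and PPARGC1A had too few counts for a test. ATP5F1E had few counts as well, and whether this lies in depth or in how reads were assigned was not tested.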
